A study of Mus musculus with 7 samples.

Results

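The transcripts described here are those of 10 chemokine genes expressed in mouse pancreatic islets: Cxcl1, Cxcl2, Cxcl5, Cxcl10, Cxcl16, Cx3cl1, Ccl2, Ccl5, Ccl20 and Ccl28. They were taken from the deposited count table by gene symbol, and 10 of its 51912 gene rows matched. The islets came from db/db mice, an obese, diabetic strain whose leptin receptor is mutated. The tested mice had received an adeno-associated virus (AAV) encoding adipsin, a serine protease of the alternative complement pathway also called complement factor D. The control mice had received an AAV encoding green fluorescent protein (GFP). Both groups were db/db, received a virus 4 weeks before islets were taken, and had their islets kept in culture for 12 hours before RNA was extracted. There were 3 AAV-Adipsin and 4 AAV-GFP libraries, each from a separate mouse, with no age, sex or vector promoter stated in the labels used here.

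Chemokines are small secreted proteins that attract leukocytes by binding G protein-coupled receptors on them. They are named for the spacing of their first cysteines (CC, CXC, CX3C). Many of their genes are inducible: NF-kB, downstream of interleukin-1 and tumour necrosis factor, drives Cxcl1, Cxcl2, Ccl2 and Ccl20, and interferon signalling drives Cxcl10. In islets, chemokines made by beta cells, macrophages and stroma have been linked to the recruitment of macrophages and T cells in diabetes. The comparison of AAV-Adipsin with AAV-GFP asks which islet transcripts differ under raised adipsin at a time when blood glucose was still similar, per the labels.

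Total counts ran from 29601707 to 43997400 per library. For Cfd, the gene of adipsin, the AAV-Adipsin libraries held 3965, 839 and 1481 counts, against 1, 0, 0 and 0 counts in the AAV-GFP libraries. The libraries also differ in how the labels describe them. The description of replicate 1 in each group is the name of its treatment, while the other replicates have a db number. This gives 2 treatment-named and 5 db-numbered libraries, with both treatments in each style. The labels used here do not say what this style stands for. The first principal component of all genes tested held 41.3% of the variance. On it the treatment-named libraries stood at -38.4 and -40.3, apart from the other 5. Those ran from -4.55 to 40.3, so the component also holds a wide spread among the db-numbered libraries. Mitochondrially encoded genes took 1.13% and 1.22% of counts in the treatment-named libraries, against 1.45% to 2.67% in the db-numbered libraries. The insulin transcript Ins2 took 11.05% to 13.8% of counts. Values are given for both divisions of the libraries.

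Upstream sequence was at hand for 6 of the 10 genes, as the 250 bases before the annotated transcript start (RefSeq, build GRCm38.p6). These windows are shown because Ccl20, Cxcl1, Cxcl10 and Ccl28 differed together between the description styles, as given below. Cxcl2, which did not differ past the threshold, is set beside its neighbour Cxcl1. No window was at hand for Ccl2, which also differed. A link between these motifs and the style difference was not tested. Capitals mark matches to the NF-kB consensus of 10 bases on either strand and, in Cxcl10, also to the interferon-stimulated response element (ISRE, a TTTC repeat with 2 bases between, either strand). The matches on both strands overlap in Cxcl1, Cxcl2 and Cxcl10, and in Cxcl10 a pair on the same strand also overlaps.
Ccl20, chr1:83116516-83116765, plus strand: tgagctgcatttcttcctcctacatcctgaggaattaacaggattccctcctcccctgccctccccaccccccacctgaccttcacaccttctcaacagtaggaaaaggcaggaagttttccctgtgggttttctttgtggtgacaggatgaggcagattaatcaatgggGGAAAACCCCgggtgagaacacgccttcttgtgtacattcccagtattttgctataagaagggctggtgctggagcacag
Cxcl1, chr5:90890995-90891244, plus strand: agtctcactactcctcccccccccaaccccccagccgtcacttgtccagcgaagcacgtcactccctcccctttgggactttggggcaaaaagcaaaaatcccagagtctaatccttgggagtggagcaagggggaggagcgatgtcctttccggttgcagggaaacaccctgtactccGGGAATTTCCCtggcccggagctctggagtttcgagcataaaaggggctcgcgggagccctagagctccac
Cxcl2, chr5:90903649-90903898, plus strand: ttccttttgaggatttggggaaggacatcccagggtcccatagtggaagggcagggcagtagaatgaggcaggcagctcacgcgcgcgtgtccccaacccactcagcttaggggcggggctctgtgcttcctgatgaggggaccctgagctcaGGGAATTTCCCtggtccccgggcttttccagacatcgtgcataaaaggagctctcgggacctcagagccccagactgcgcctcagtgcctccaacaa
Cxcl10, chr5:92348890-92349139, minus strand: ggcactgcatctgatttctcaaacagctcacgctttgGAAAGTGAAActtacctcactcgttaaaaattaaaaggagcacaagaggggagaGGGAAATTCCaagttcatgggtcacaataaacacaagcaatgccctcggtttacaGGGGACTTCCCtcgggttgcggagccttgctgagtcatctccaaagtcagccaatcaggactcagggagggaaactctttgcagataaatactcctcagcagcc
Ccl28, chr13:119623569-119623818, plus strand: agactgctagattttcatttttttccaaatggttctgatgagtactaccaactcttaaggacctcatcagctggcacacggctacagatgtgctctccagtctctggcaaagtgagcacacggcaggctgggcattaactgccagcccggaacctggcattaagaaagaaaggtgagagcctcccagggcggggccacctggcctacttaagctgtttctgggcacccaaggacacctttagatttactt
The NF-kB consensus was found in 4 of the 6 windows, those of Ccl20, Cxcl1, Cxcl2 and Cxcl10, and in 7.25% of 32817 annotated windows of the same length. In Cxcl1 the match lay from -71 to -61 relative to the start, in Ccl20 from -80 to -71, in Cxcl2 from -97 to -87 and in Cxcl10 from -159 to -150 and from -104 to -94. The ISRE match of Cxcl10 lay from -213 to -204, and 2.97% of all windows held one. An AP-1 motif (TGANTCA, either strand) was found only in Cxcl10 among the 6 windows, from -74 to -68, against 6.75% of all windows. For a TATA box only the exact letters TATAAA were searched, on either strand. Near forms, such as CATAAA in the windows of Cxcl1 and Cxcl2, were not counted. The exact letters were found only in Cx3cl1 among the 6, from -6 to -1, against 12.4% of all windows. That window ends at 94772179, past the GENCODE gene start of 94772009 given below, so the match lies inside the gene as placed there. The windows of Cxcl1 and Cxcl2 also run past theirs, to 90891244 and 90903898 against 90891241 and 90903871. Ccl28 held none of these 4 motifs in its window. A match describes letters in the sequence and is not evidence of binding.

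**Figure D1:**
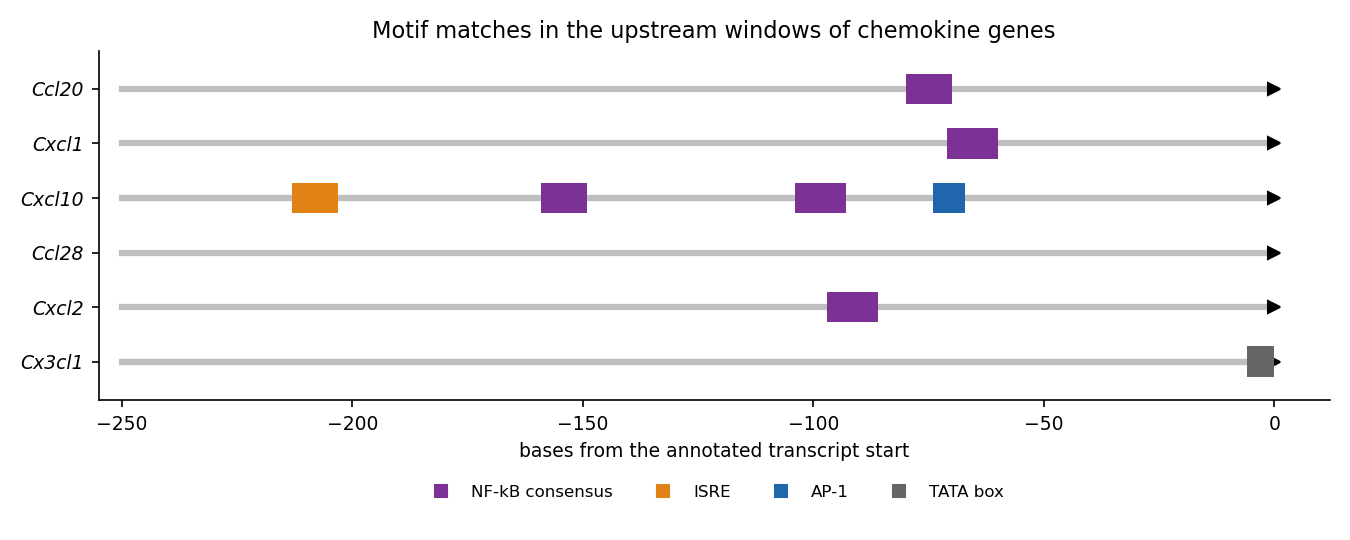
Matches to 4 motifs in the 250 bases before the annotated start of 6 chemokine genes; the x axis is the distance from the start in bases, and blocks are drawn to scale. Ccl20, Cxcl1, Cxcl2 and Cxcl10 hold NF-kB matches between -159 and -61, and Ccl28 holds none of the 4 motifs.

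Ccl28 was the most abundant of the 10 transcripts. It encodes a mucosal chemokine made by epithelial cells that acts on Ccr10 and Ccr3. Per kilobase of exon it averaged 59.2 CPM (counts scaled to library size) over the 7 libraries, with a range of 23.6 to 81.1, and it made up 80.4% to 86.7% of the summed CPM of the 10 genes. In all 7 libraries it was above every other member. Ccl2 (mean 7.08 CPM per kilobase), Cxcl16 (5.30), Cxcl1 (3.41), Cx3cl1 (3.11), Cxcl10 (2.14), Ccl20 (1.89), Ccl5 (0.975), Cxcl5 (0.686) and Cxcl2 (0.450) followed by mean level. Most neighbours in this order were not separated in every library, although Cxcl16 was above Cxcl1 in 7 of 7. Ccl2 was above Cxcl16 in 4 of 7 libraries, Cxcl10 above Ccl20 in 4 of 7, and Cxcl1 above Cx3cl1 in 5 of 7. Cx3cl1 was the steadiest member, between 2.70 and 3.65 CPM per kilobase, and Ccl20 the most variable, between 0.0183 and 3.05. The 10 genes are not the 10 most abundant chemokines: Pf4 (3.54), Ccl11 (2.98) and Cxcl14 (2.95) had higher mean CPM per kilobase than Ccl5, Cxcl5 and Cxcl2. Single libraries raised these means, which were 1.38 for Pf4 without AAV-Adipsin replicate 2, and 2.01 for both Ccl11 and Cxcl14 without AAV-GFP replicate 4. The medians of Pf4 (1.14), Ccl11 (1.99) and Cxcl14 (1.31) were below that of Cxcl10 (2.31), but above the means of Ccl5, Cxcl5 and Cxcl2. Ccl27a, at a mean of 1.42 and a range of 1.13 to 1.75, was also above those means. Islet RNA was measured in bulk, so fewer cells of a type and less RNA per cell cannot be told apart.

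None of the 10 chemokine transcripts differed between AAV-Adipsin and AAV-GFP islets past the threshold. All 10 passed the filter on low counts, and all 10 overlapped between the groups. The smallest unadjusted p was 0.151 (Cxcl2), and every adjusted p was 1.00 (edgeR). DESeq2 and limma-voom also called 0 of the 10. Over all 16504 genes tested, 0.00606% passed, which is the single gene Cfd, and 2.73% did not overlap between the groups, 1.58% of all genes being wholly lower in AAV-Adipsin. The median log2 fold change of the 10 was 0.09, with 9 of 10 above 0, against a median of -0.01 over all genes tested. None of the 10 had an unadjusted p under 0.05, where 1.16% of all genes did.

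By contrast, 5 of the 10 transcripts were lower in the treatment-named than in the db-numbered libraries: Ccl20, Cxcl1, Ccl2, Cxcl10 and Ccl28. In this comparison 5.57% of all genes passed as lower and 4.22% as higher, 9.79% in all (edgeR, adjusted p under 0.05, with treatment in the model), and 0 of the 10 passed as higher. At an unadjusted p under 0.05 there were 7 of the 10, against 28.2% of all genes. Of the 10, 6 lay wholly lower in the treatment-named libraries and 1, Cx3cl1, wholly higher, where 18.9% of all genes did not overlap in the lower and 18.7% in the higher direction, 37.6% in all. The median log2 fold change of the 10 was -1.89, against -0.01 over all genes tested. The filter on low counts can be passed through the db-numbered libraries alone. Ccl20 and Cxcl2, which had fewer than 10 counts in at least 1 treatment-named library, are therefore to be read apart. The other 8 members had at least 10 counts in both, and of the called genes they include Cxcl1, Ccl2, Cxcl10 and Ccl28. The counts and the median above cover all 10. The 10 were chosen with earlier results of these data known, so their share is a description and not a separate test. Only 2 libraries carry the treatment-named side, and without either of them 2 of the 5 calls remained (Ccl20 and Ccl28). Such a fit has 1 treatment-named library, which is assumed to vary like the others. Over all genes 1616 were called, against 55, 346 and 501 without AAV-Adipsin replicate 1, 2 or 3, and 39, 671 and 4348 without AAV-GFP replicate 1, 3 or 4.

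**Figure D2:**
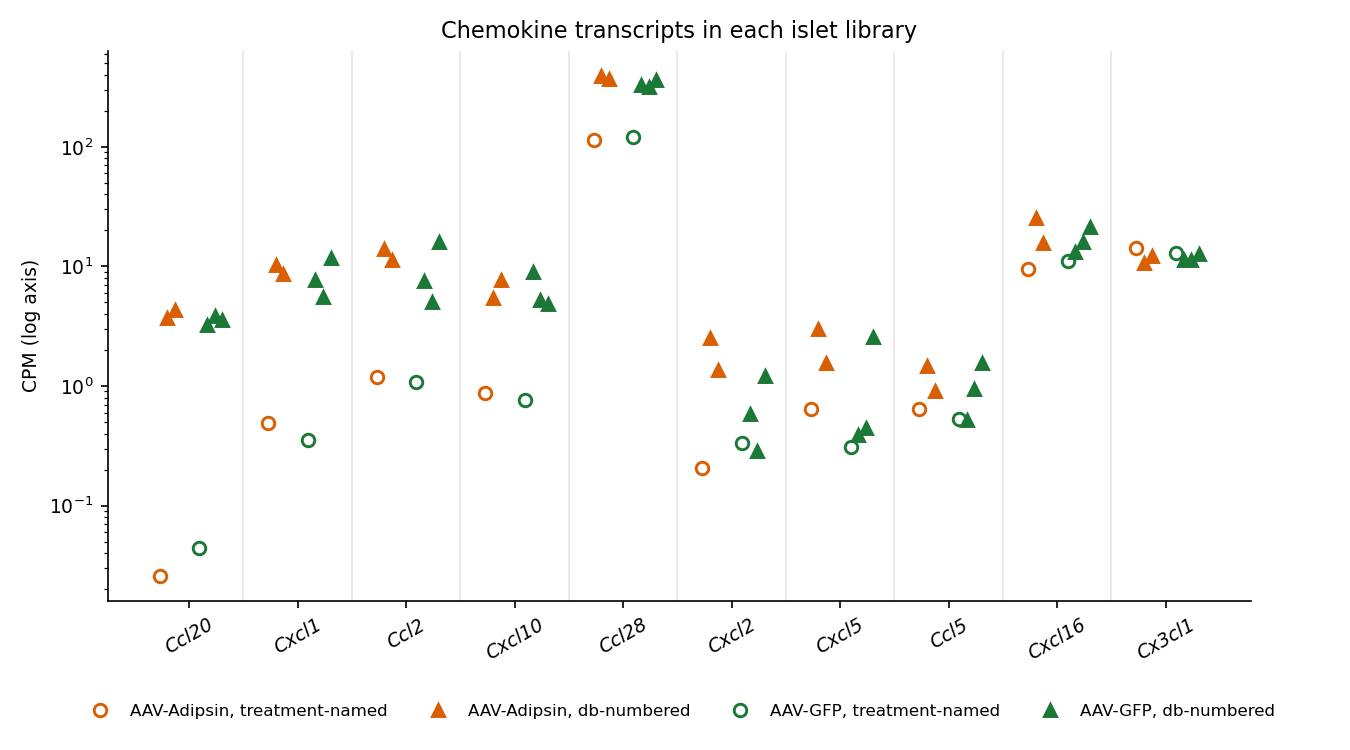
CPM of 10 chemokine transcripts in each islet library, on a log axis; AAV-Adipsin libraries (orange) stand left of AAV-GFP libraries (green), open circles are treatment-named and filled triangles db-numbered libraries. For Ccl20, Cxcl1, Ccl2, Cxcl10 and Ccl28 both open circles lie below all 5 triangles, while the orange and green triangles of these genes overlap or lie close together.

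Cxcl1, Cxcl2 and Cxcl5 encode the chemokines that attract neutrophils through Cxcr2. Cxcl1 stood at 0.493, 10.3 and 8.71 CPM in AAV-Adipsin replicates 1 to 3, against 0.356, 7.70, 5.51 and 11.8 CPM in AAV-GFP replicates 1 to 4. Replicate 1 of each group was far below the others, and the groups overlapped. The means were 6.49 ± 5.26 CPM in AAV-Adipsin (SD, n = 3) and 6.33 ± 4.75 CPM in AAV-GFP (SD, n = 4), a log2 fold change of 0.04 (SE 1.18). Between description styles the log2 fold change was -4.39 (SE 0.38, adjusted p = 0.00170), 21-fold lower at 0.424 ± 0.0967 CPM in the treatment-named libraries (SD, n = 2) against 8.79 ± 2.40 CPM in the db-numbered libraries (SD, n = 5). This call missed the threshold without AAV-Adipsin replicate 1 (adjusted p = 0.0504) or AAV-GFP replicate 1 (0.0673), with log2 fold changes of -4.53 and -4.26.

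Cxcl2 was weak, at 0.207, 2.54 and 1.35 CPM in AAV-Adipsin replicates 1 to 3, against 0.334, 0.584, 0.286 and 1.21 CPM in AAV-GFP replicates 1 to 4. It was high in AAV-Adipsin replicates 2 and 3 and AAV-GFP replicate 4, with overlap in both divisions of the libraries. Its log2 fold change was 1.20 (SE 0.76, adjusted p = 1.00) for AAV-Adipsin over AAV-GFP and -1.97 (SE 0.72, adjusted p = 0.126) for treatment-named over db-numbered, where DESeq2 did call it (-1.93, adjusted p = 0.0430). Single libraries moved both values of Cxcl2: by treatment it was 0.41 without AAV-Adipsin replicate 2 and 1.77 without AAV-GFP replicate 4, and by style -1.02 without AAV-Adipsin replicate 1 and -3.205 without AAV-GFP replicate 1. Cxcl2 shares 5.84% of its 50-base words with Cxcl3, so some reads could be counted for either. Cxcl5 stood at 0.648, 3.01 and 1.55 CPM in AAV-Adipsin replicates 1 to 3, against 0.311, 0.390, 0.442 and 2.59 CPM in AAV-GFP replicates 1 to 4. AAV-GFP replicate 4 was the only AAV-GFP library with Cxcl5 above 0.5 CPM. Neither comparison called Cxcl5, at 0.92 (SE 0.82) for treatment and -1.82 (SE 0.83, adjusted p = 0.201) for description style. The treatment value of Cxcl5 was 0.28 without AAV-Adipsin replicate 2 and 2.18 without AAV-GFP replicate 4.

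Ccl2 encodes the monocyte attractant that binds Ccr2. It stood at 1.19, 14.1 and 11.3 CPM in AAV-Adipsin replicates 1 to 3, against 1.09, 7.53, 5.04 and 16.1 CPM in AAV-GFP replicates 1 to 4. Again replicate 1 of each group was lowest, and the other libraries of both groups interleaved. The log2 fold change was 0.26 (SE 1.01) for AAV-Adipsin over AAV-GFP and -3.26 (SE 0.51, adjusted p = 0.0142) for treatment-named over db-numbered, 9.57-fold lower. The call by description style was lost without AAV-Adipsin replicate 1 (-3.12, adjusted p = 0.196), without AAV-GFP replicate 1 (-3.41, adjusted p = 0.180) and without a filter on low counts (-3.24, adjusted p = 0.0626).

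Ccl20, the ligand of Ccr6, attracts dendritic cells and subsets of lymphocytes. It had 1, 117 and 173 counts in AAV-Adipsin replicates 1 to 3, against 2, 99, 149 and 103 counts in AAV-GFP replicates 1 to 4. In CPM these were 0.0259, 3.71 and 4.33 in AAV-Adipsin, against 0.0445, 3.21, 3.87 and 3.55 in AAV-GFP. Counts of Ccl20 were near 0 in both treatment-named libraries and within a narrow range in the other 5. The 3 counts in the treatment-named libraries against 641 in the db-numbered libraries put the rate in the treatment-named libraries at 0.97% of that in the db-numbered libraries, with a 95% interval of 0.2% to 2.85% for counting error alone. The fitted log2 fold change between styles, -6.58 (SE 0.34, adjusted p = 1.89e-04), depends on the prior count. This call held in all 15 alternatives, with log2 fold changes of -7.095 to -6.21. Ccl20 passed the filter on low counts only through the db-numbered libraries, where it was high, so this adds no support of its own. Between AAV-Adipsin and AAV-GFP the log2 fold change of Ccl20 was 0.02 (SE 1.33).

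Cxcl10, Ccl5 and Cxcl16 attract T cells, Cxcl10 through Cxcr3 and Cxcl16 through Cxcr6. Cxcl10, an interferon-induced chemokine, stood at 0.882, 5.46 and 7.63 CPM in AAV-Adipsin replicates 1 to 3, against 0.756, 8.99, 5.20 and 4.87 CPM in AAV-GFP replicates 1 to 4. Both treatment-named libraries were below 1 CPM and all others above 4 CPM. Its log2 fold change was -0.08 (SE 0.88) for AAV-Adipsin over AAV-GFP and -2.98 (SE 0.34, adjusted p = 0.00425) for treatment-named over db-numbered, 7.89-fold lower. The call missed the threshold without AAV-Adipsin replicate 1 (-3.06, adjusted p = 0.105) or AAV-GFP replicate 1 (-2.89, adjusted p = 0.120).

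Ccl5 was low throughout, at 0.648, 1.46 and 0.901 CPM in AAV-Adipsin replicates 1 to 3, against 0.534, 0.520, 0.935 and 1.55 CPM in AAV-GFP replicates 1 to 4. It overlapped in both divisions, with log2 fold changes of 0.18 (SE 0.46) for treatment and -0.88 (SE 0.44, adjusted p = 0.243) for description style. Cxcl16, made as a membrane-bound protein and released by proteases, stood at 9.44, 25.5 and 15.5 CPM in AAV-Adipsin replicates 1 to 3, against 11.2, 13.1, 16.1 and 21.3 CPM in AAV-GFP replicates 1 to 4. Its values by treatment overlapped widely (0.13, SE 0.34). The treatment-named libraries held the 2 lowest Cxcl16 values, a log2 fold change of -0.83 (SE 0.26) that missed the threshold in edgeR (adjusted p = 0.0897) and passed in DESeq2 (-0.82, adjusted p = 0.0106).

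Ccl28 stood at 114.5, 392.8 and 368.9 CPM in AAV-Adipsin replicates 1 to 3, against 119.9, 327.6, 319.0 and 364.0 CPM in AAV-GFP replicates 1 to 4. The 5 db-numbered libraries lay within a narrow range and the 2 treatment-named libraries at about the same lower level. The log2 fold change between styles was -1.60 (SE 0.10, adjusted p = 3.16e-04), 3.04-fold lower at 117.2 ± 3.82 CPM in the treatment-named libraries (SD, n = 2) against 354.5 ± 30.6 CPM in the db-numbered libraries (SD, n = 5). This call also held in all 15 alternatives, with adjusted p up to 0.0199. Between treatments the means were 292.1 ± 154.2 CPM in AAV-Adipsin (SD, n = 3) and 282.7 ± 110.2 CPM in AAV-GFP (SD, n = 4), a log2 fold change of 0.05 (SE 0.52).

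Cx3cl1 encodes fractalkine, a membrane-anchored chemokine that binds Cx3cr1 on macrophages and monocytes and has been described in beta cells. It was the exception to the direction of the other 9. Cx3cl1 stood at 14.3, 10.6 and 12.2 CPM in AAV-Adipsin replicates 1 to 3, against 12.9, 11.2, 11.4 and 12.8 CPM in AAV-GFP replicates 1 to 4. Both treatment-named libraries were above all db-numbered ones by a small margin, with a log2 fold change of 0.22 (SE 0.11) that did not pass (adjusted p = 0.224). The treatment difference was 0.03 (SE 0.13).

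**Figure D3:**
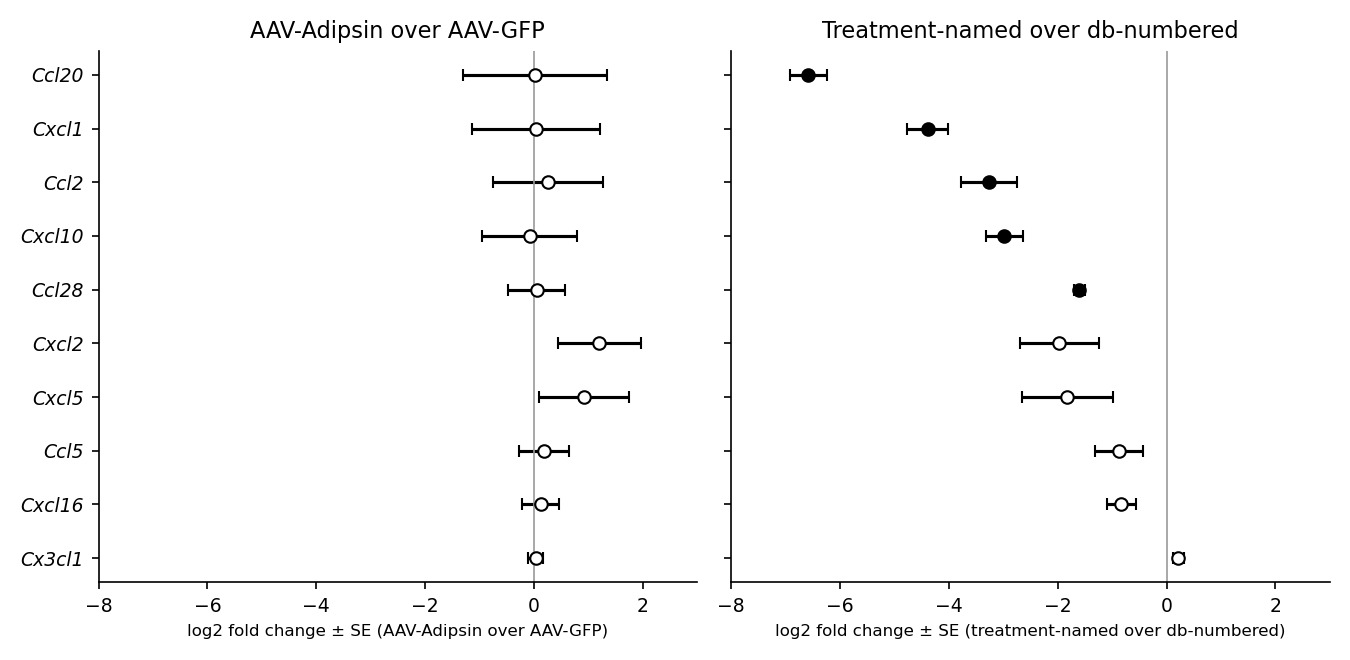
Log2 fold change with its standard error for 10 chemokine transcripts, AAV-Adipsin over AAV-GFP at left and treatment-named over db-numbered at right; filled points have an edgeR adjusted p under 0.05 over all genes tested. No gene is filled at left, where values run from -0.08 to 1.20, and 5 are filled at right, from -6.58 for Ccl20 to -1.60 for Ccl28.

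Treatment differences within each description style are given as values without an error, since the treatment-named pair is 1 library of each treatment. For Ccl20 that pair held 1 and 2 counts. In the treatment-named pair the difference in log2 CPM, AAV-Adipsin minus AAV-GFP, was -0.30 for Ccl20, 0.41 for Cxcl1, 0.12 for Ccl2, 0.21 for Cxcl10 and -0.07 for Ccl28. Among the db-numbered libraries the same differences were 0.18 for Ccl20, 0.25 for Cxcl1, 0.57 for Ccl2, 0.08 for Cxcl10 and 0.18 for Ccl28. For Cxcl2 they were -0.57 and 1.55, for Cxcl5 0.94 and 1.41, for Ccl5 0.26 and 0.31, for Cxcl16 -0.24 and 0.27, and for Cx3cl1 0.15 and -0.05. With description style as a term in the model, the log2 fold change for treatment was 0.14 (SE 0.19) for Ccl20, 0.11 (SE 0.08) for Ccl28 and 0.24 (SE 0.27) for Cxcl1, and none of the 10 passed (adjusted p = 0.999 for each). Cxcl2 and Ccl28 were higher in both db-numbered AAV-Adipsin libraries than in the 3 db-numbered AAV-GFP libraries, which is 2 of 10 where 19.3% of all genes did not overlap. The difference of the treatment effect between styles passed for none of the 10 in edgeR, DESeq2 or limma-voom, nor at an unadjusted p under 0.05 (edgeR interaction, adjusted p = 1.00 for each), where 0.818% of all genes had an unadjusted p under 0.05 and 0.0% passed. The smallest unadjusted p belonged to Cxcl2, at 0.139 with a log2 difference of -2.18 (SE 1.29). For the 5 called genes the style difference is also given within each treatment. These genes were called from the same libraries, so the direction of these values follows from the call and adds no support. Within AAV-Adipsin, the treatment-named library differed from the mean of the others by -5.65 for Ccl20, -4.12 for Cxcl1, -3.34 for Ccl2, -2.80 for Cxcl10 and -1.73 for Ccl28 in log2 CPM. Within AAV-GFP the same differences were -5.17, -4.28, -2.90, -2.92 and -1.49.

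The other 29 chemokine genes were mostly weak: 23 had a count in any library and 12 passed the filter on low counts. None of the 12 passed between treatments in edgeR, DESeq2 or limma-voom (2, 2 and 0 at an unadjusted p under 0.05), and 1, Ccl3, passed as lower in the treatment-named libraries, where 5.57% of all genes did. Ccl3 had 7 and 2 counts in the treatment-named libraries and 18 to 30 in the others, through which it passed the filter. Ccl3, a macrophage chemokine, stood at 0.182, 0.888 and 0.526 CPM in AAV-Adipsin replicates 1 to 3, against 0.0445, 0.584, 0.468 and 1.04 CPM in AAV-GFP replicates 1 to 4 (style log2 fold change -2.68, SE 0.62, adjusted p = 0.0377). The call of Ccl3 was lost when any 1 library other than AAV-GFP replicate 4 was left out, with adjusted p of 0.0606 to 0.347. The smallest unadjusted p between treatments belonged to Ccl6, Pf4, Ccl9 and Cxcl3, and AAV-Adipsin replicate 2 stood above every other library for each of them. Ccl6, a chemokine of myeloid cells, had 0.700, 13.3 and 0.801 CPM in AAV-Adipsin replicates 1 to 3, against 0.390 to 0.828 CPM in AAV-GFP (log2 fold change 2.97, SE 1.08, adjusted p = 1.00). Pf4, platelet factor 4, had 0.648, 11.9 and 1.63 CPM in AAV-Adipsin, against 0.552 to 1.73 CPM in AAV-GFP (2.35, SE 0.96, adjusted p = 1.00). Without AAV-Adipsin replicate 2 these log2 fold changes were 0.27 and 0.32. The summed CPM of 14 macrophage markers was also highest in AAV-Adipsin replicate 2, at 356.6, against 150.5 to 221.2 in the other libraries, and its part in these values was not tested. Ccl11 (eotaxin) and Cxcl14 were highest in AAV-GFP replicate 4, at 9.52 and 15.7 CPM. Cxcl12, the ligand of Cxcr4, ran from 3.34 to 17.7 CPM and Cxcl13 from 0.0250 to 0.389 CPM, and neither passed in edgeR in either comparison, while DESeq2 called Cxcl12 lower in the treatment-named libraries (-1.39, adjusted p = 0.0125).

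**Figure D4:**
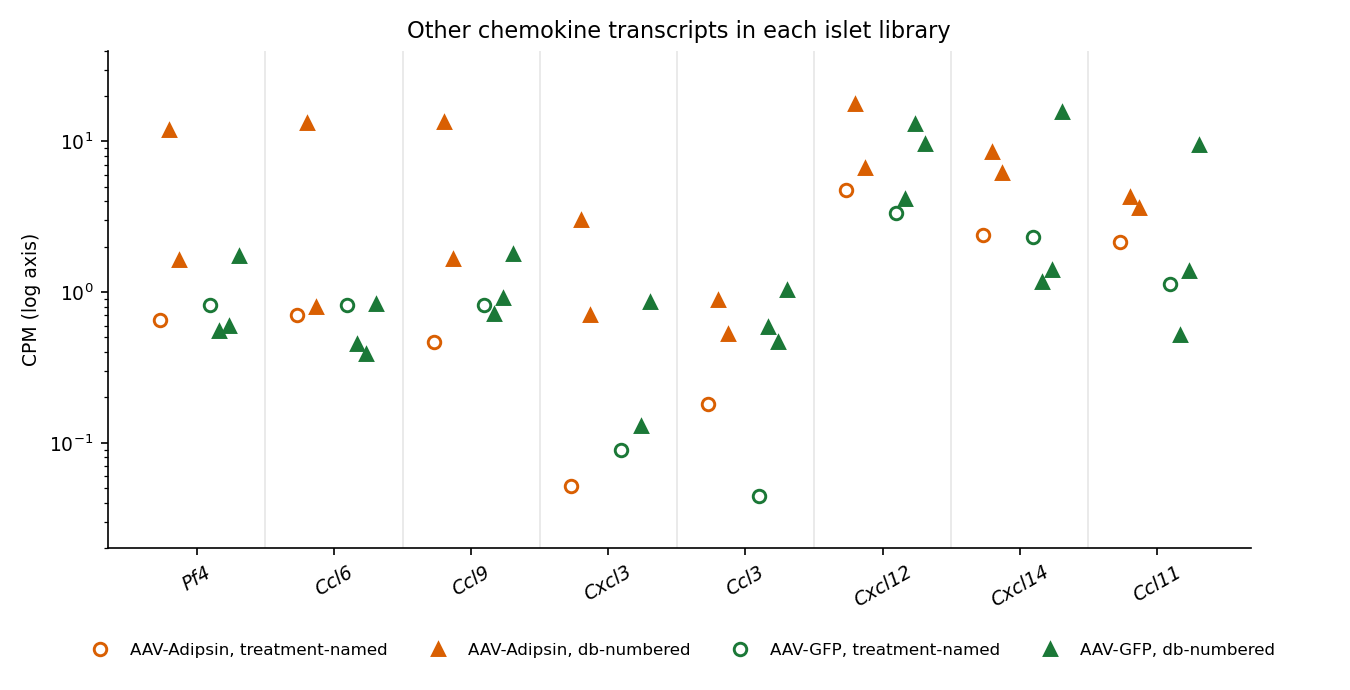
CPM of 8 other chemokine transcripts in each islet library, on a log axis, with AAV-Adipsin (orange) left of AAV-GFP (green), open circles treatment-named and triangles db-numbered; Cxcl3 in AAV-GFP replicate 2, at 0, is not drawn. AAV-Adipsin replicate 2 is highest for Pf4, Ccl6, Ccl9 and Cxcl3, and AAV-GFP replicate 4 for Cxcl14 and Ccl11.

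Receptors for most of these ligands were barely detected, and those given here by count were chosen after their values were seen. Summed over the 7 libraries, Cxcr2, the receptor of Cxcl1, Cxcl2 and Cxcl5, had 1 count and its relative Cxcr1 had 0. Cxcr3 had 6, Ccr6 had 6, Cxcr6 had 22 and Ccr2 had 27 counts, and Ccr10, a receptor of Ccl28, had 85. Of 23 receptor genes, 9 passed the filter, and none passed between treatments in edgeR, DESeq2 or limma-voom (0 at an unadjusted p under 0.05 in each). By style 1 of the 9, Cx3cr1, passed as lower in the treatment-named libraries, where 5.57% of all genes did. Cx3cr1, the fractalkine receptor, stood at 3.92, 5.01 and 6.33 CPM in AAV-Adipsin replicates 1 to 3, against 2.25, 6.56, 5.22 and 4.93 CPM in AAV-GFP replicates 1 to 4 (style log2 fold change -0.92, SE 0.23, adjusted p = 0.0489, or 0.0511 without robust estimation). The call of Cx3cr1 was also lost when any 1 library other than AAV-GFP replicate 4 was left out, with adjusted p of 0.0627 to 0.444. Cxcr4 was the most abundant receptor, at 17.7 CPM per kilobase, followed by Ccrl2 at 3.75 and Ackr3 at 2.04. Cxcr4 did not pass in either comparison. Ackr3, a scavenger of Cxcl12, had a log2 fold change of 0.31 (SE 0.16, adjusted p = 1.00) between treatments.

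Of 22 listed genes of NF-kB signalling and of cytokines that induce chemokines, 21 were tested. Among these, 12 passed as lower in the treatment-named libraries, 0 as higher and 9 did not pass, where 5.57% of all genes passed as lower, and the median log2 fold change was -0.59. The list was chosen with earlier results of these data known, so its count is a description and not a separate test. Nos2, inducible nitric oxide synthase, stood at 0.104, 34.9 and 34.1 CPM in AAV-Adipsin replicates 1 to 3, against 0.222, 29.3, 21.4 and 30.6 CPM in AAV-GFP replicates 1 to 4 (style log2 fold change -7.47, SE 0.31, adjusted p = 1.89e-04). These were 4 and 10 counts of Nos2 in the treatment-named libraries and 822 to 1361 in the others, so the gene passed the filter through the db-numbered libraries and its fitted fold depends on the prior count. Tnf, also among the 12, had 6 and 12 counts in the treatment-named libraries and 52 to 96 in the others, and is to be read with the same caution. Birc3, an inhibitor of apoptosis and NF-kB target, was at -2.71 (SE 0.14), Tnfaip3, which encodes the inhibitor A20, at -1.86 (SE 0.09), and Relb, an NF-kB subunit, at -1.44 (SE 0.07), each with an adjusted p of 1.89e-04. Nfkbia, which encodes the inhibitor of NF-kB that holds it in the cytoplasm, was at -1.65 (SE 0.11, adjusted p = 3.92e-04) and Nfkbiz at -1.0 (SE 0.10, adjusted p = 0.00274). Rela, the main activating subunit, was at -0.29 (SE 0.09) and did not pass (adjusted p = 0.0774), nor did the interleukin-1 receptor Il1r1, at 0.23 (SE 0.10, adjusted p = 0.193). Between treatments none of the 21 passed in edgeR, DESeq2 or limma-voom (1, 0 and 0 at an unadjusted p under 0.05), with a median of 0.02.

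Of 18 interferon-response genes tested, 6 passed as lower in the treatment-named libraries and 0 as higher, where 5.57% of all genes passed as lower. The other 12 did not pass, and the median was -0.79. This list, too, was chosen with earlier results of these data known, so its count is a description. Gbp3 and Gbp2, interferon-induced GTPases, were at -2.37 (SE 0.28, adjusted p = 0.00486) and -2.02 (SE 0.29, adjusted p = 0.00924), Oasl2 at -1.27 (SE 0.14, adjusted p = 0.00407) and the transcription factor Irf1 at -0.48 (SE 0.08, adjusted p = 0.0140). Gbp3, Gbp2 and Irf1 missed the threshold without AAV-Adipsin replicate 1 (adjusted p = 0.119, 0.182 and 0.229) or AAV-GFP replicate 1 (0.0736, 0.169 and 0.182), and Irf1 also without AAV-Adipsin replicate 2 (0.0521) or 3 (0.0520), while Oasl2 passed in every alternative. Between treatments none of the 18 passed in edgeR, DESeq2 or limma-voom. At an unadjusted p under 0.05 there were 3, 4 and 2, against 191, 214 and 189 of all 16504 genes tested. The median was 0.55 and 17 were above 0, against a median of -0.011 and 7616 above 0 over all genes tested. The smallest edgeR p belonged to Ifit3 at 1.11 (SE 0.35) and Ifit2 at 1.18 (SE 0.37), and both overlapped between the groups. For Ifit3 AAV-Adipsin replicate 1 stood at 5.13 CPM, within the AAV-GFP range of 4.38 to 5.85 CPM. For Ifit2 it stood at 1.82 CPM, within 1.27 to 2.08 CPM. Adam10 and Adam17, the proteases that release Cxcl16 and Cx3cl1 from the membrane, were at -0.28 (SE 0.07, adjusted p = 0.0578) and -0.29 (SE 0.08, adjusted p = 0.0645) by style and passed in DESeq2 and without AAV-GFP replicate 4.

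**Figure D5:**
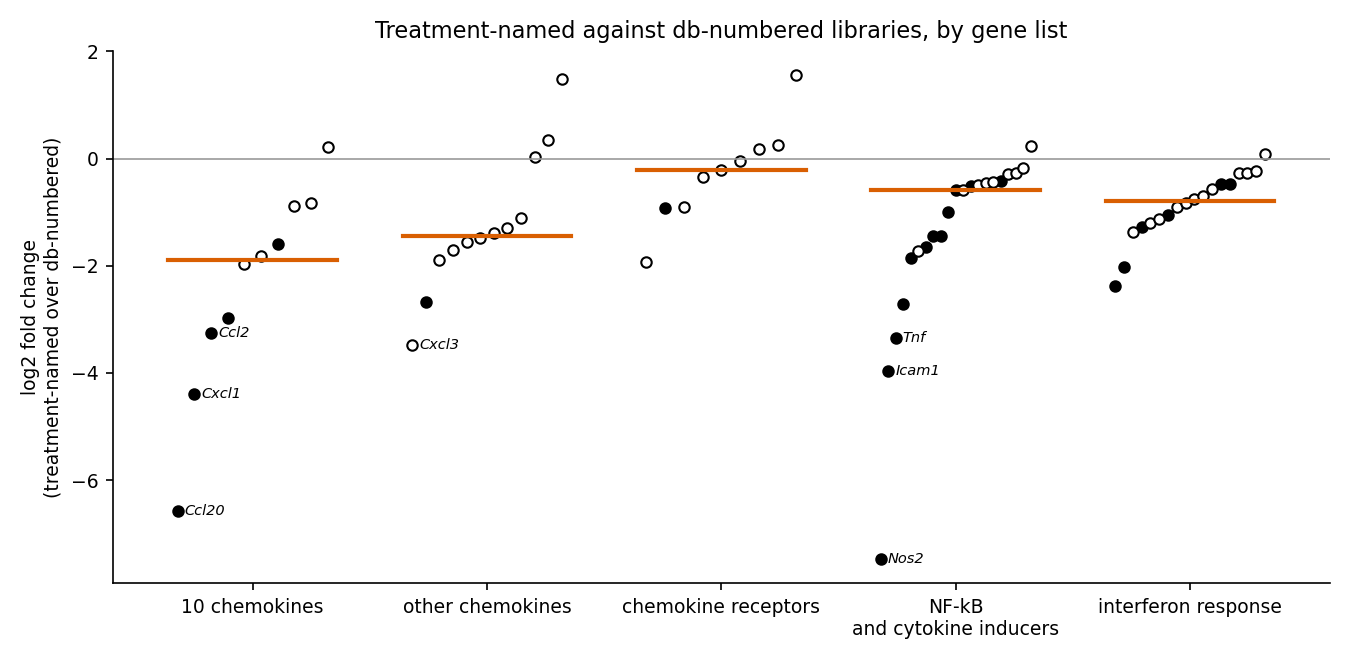
Log2 fold change, treatment-named over db-numbered, of each tested gene in 5 lists; filled points have an edgeR adjusted p under 0.05, and orange lines are medians of the genes tested. Filled points number 5 of 10 for the chemokines described here, 12 of 21 for the NF-kB list and 6 of 18 for the interferon list, all below 0. The lists were chosen with earlier results of these data known. Of the filled points, Ccl20, Ccl3, Nos2 and Tnf had fewer than 10 counts in at least 1 treatment-named library.

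Markers of the cell types that an islet preparation can hold were summed beside these results. These lists, too, were chosen with earlier results of these data known. Macrophage markers reached 150.5 and 165.6 CPM in the treatment-named libraries, against 157.3 to 356.6 CPM in the db-numbered libraries. Of 13 tested, 1 passed as lower, the scavenger receptor Msr1, where 5.57% of all genes did. Duct markers reached 2084 and 2220 CPM against 2326 to 3426 CPM, endothelial markers 389.9 and 441.1 against 355.0 to 574.0, mesenchymal markers 137.8 and 156.1 against 92.4 to 351.4, and acinar markers 3981 and 5295 against 2759 to 18280, with 0 of 10, 0 of 8, 0 of 9 and 0 of 13 passing. Neutrophil markers summed to 0.856 and 1.36 CPM in the treatment-named libraries, against 1.10 to 7.30 CPM in the db-numbered libraries, and Ly6g, Retnlg and Elane had 0 counts in any library. Of 3 neutrophil markers tested, 1, Ltf, passed as lower, again against 5.57% of all genes. Ltf had 0 counts in both treatment-named libraries and 18 to 86 in the others. It thus passed the filter on low counts through the db-numbered libraries alone. T and NK cell markers summed to 1.04 and 1.60 CPM against 1.403 to 2.42 CPM, with Cd3e and Nkg7 at 0 counts throughout, B cell markers to 0.712 and 1.43 against 0.425 to 1.43, and mesothelial markers to 8.43 and 14.3 against 4.82 to 10.8, and none of the 1, 2 and 1 tested in these lists passed. Of 10 beta cell markers, 4 passed as higher in the treatment-named libraries, where 4.22% of all genes did: Iapp, Slc2a2, Ucn3 and Slc30a8, and the sum was 192600 and 204400 CPM against 164200 to 203200 CPM. The part of any of these cell types, of the mitochondrial share or of library depth in the chemokine values was not tested.

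The tested genes whose log2 CPM most resembled each chemokine over the 7 libraries were ranked by Pearson's r, as a description of these libraries, which share the split by description style. For Ccl20 they were Mab21l3 (0.998), Nos2 (0.996) and Micall2 (0.996), and over the 5 db-numbered libraries alone the same values were 0.606, 0.093 and 0.409. Within the db-numbered libraries the likeness of these genes to Ccl20 was therefore much lower. For Ccl28 they were the metalloreductase Steap4 (0.998), complement factor B, Cfb (0.998), and Irak3 (0.997), an inhibitor of interleukin-1 receptor signalling, with 0.942, 0.952 and 0.863 among the db-numbered libraries. Irak3 (0.998) was also among the nearest to Cxcl1, with Vnn3 and Unc93b1. Cxcl5 resembled Cd93, Peak1 and Tek (0.992 to 0.993), of which Cd93 and Tek are endothelial genes. Ccl2 resembled Psme2 (0.998), a proteasome activator subunit, Rps3a1 and Mpc1-ps, Cxcl10 resembled Gbp8 (0.996), Sowahc and Tm9sf3, and Ccl5 resembled Ifitm3 (0.993), Ctsc and Rest. Cxcl16 resembled Clic1 (0.998), Slc39a14 and S100a10, Cxcl2 resembled Stra6l (0.978), Samd4 and Pfkfb3, and Cx3cl1 resembled Prpsap2 (0.974), Emc8 and Efnb3. For the members other than Ccl20 and Ccl28, the genes named had r of 0.914 to 0.997 among the db-numbered libraries.

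On GRCm38 the genes lie on 5 chromosomes. Cxcl5, Cxcl1, Cxcl2 and Cxcl10 lie on chromosome 5, with starts at 90759360, 90891241, 90903871 and 92346638. Cxcl16, Ccl2 and Ccl5 lie on chromosome 11, with starts at 70453983, 82035571 and 83525778, Ccl20 on chromosome 1 at 83116766, Cx3cl1 on chromosome 8 at 94772009 and Ccl28 on chromosome 13 at 119623819. Cxcl1 and Cxcl2 are neighbours, and the difference between their style values was not tested. Overlapping genes on the opposite strand were Art3 for Cxcl10 (0.285 to 0.725 CPM), Zmynd15 for Cxcl16 (1.17 to 4.45 CPM) and Gm17268 for Ccl2 (0 counts). No label states whether counting used strand, so reads of Cxcl16 and Cxcl10 cannot be told with certainty from those of their partners.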

How the data were processed

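Messenger RNA of islets from 7 db/db mice was sequenced with a stranded kit, 1 library per mouse, per the labels' protocols. Reads were aligned with STAR to mm10 (GRCm38), per the submitters' processing notes. How reads were counted, with which annotation and whether by strand, is not given in the sources used here. The authors deposited read counts per Ensembl gene, whole numbers and not normalised, in 1 table whose 7 columns were all used. Symbols were matched for 51633 of 51912 rows, and exon lengths and coordinates came from GENCODE M21 (GRCm38).

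Tests were run with edgeR 4.0.16 in R 4.3.3, after filterByExpr by treatment and TMM scaling, as robust quasi-likelihood F tests. Benjamini-Hochberg adjustment covered every gene tested, and an adjusted p under 0.05 counted as called. The model held treatment alone, treatment and description style, or both with their interaction. Standard errors (SE) come from the F statistic. CPM values use the TMM factors, and log2 CPM a prior count of 2. A count of 0 allows up to 3 counts, or 0.0682 to 0.101 CPM, for counting error only. The procedure was tested on simulated data.

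The members and lists were chosen with earlier results of these data known. The genes named are the 10 members and, from each list, up to 4 with the highest mean level per kilobase, the smallest p by treatment or the smallest p by style; the proteases Adam10 and Adam17; and the 3 genes most like each member, with a mean log2 CPM of at least 1 and no provisional symbol. Tnf is named for its low counts, and cell type markers where they passed or were at 0. Alternatives were DESeq2 1.42.0, limma-voom (limma 3.58.1), other scalings and filters, no robust estimation, a replicate block, description style as a term, no treatment term, and leaving out libraries.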

Additional observations from a re-analysis of the deposited data

Results flagged for a closer look

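Cxcl5 in AAV-GFP replicate 4, at 2.59 CPM, stood far above the other 3 AAV-GFP libraries, which had 0.311 to 0.442 CPM; its gap to the next library was 0.943 of the range of the group. It was the single such case among the 10 chemokines, each looked at over the 4 AAV-GFP and the 5 db-numbered libraries, and chance flags about 1 in 20 groups. The same library was the highest of all 7 for Ccl11, at 9.52 CPM, for Cxcl14, at 15.7 CPM, and for the summed mesenchymal markers, at 351.4 CPM.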

How the results depend on the processing

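Between AAV-Adipsin and AAV-GFP, 1 gene was called over all genes, against 4 by DESeq2 and 0 by limma-voom, without a filter on low counts and without both treatment-named libraries, and 0 to 1 when single libraries were left out; 0 of the 10 chemokines were called under any alternative. Between description styles, DESeq2 called 2533 genes against 1616, and leaving out single libraries gave 39 to 4348. It called 7 of the 10 chemokines, no filter on low counts gave 4, and leaving out single libraries gave 2 to 5. Log2 fold changes by treatment changed sign in limma-voom for Ccl20 (-0.38) and Ccl28 (-0.028), with description style as a term for Cxcl10 (0.084), and without both treatment-named libraries for Cxcl10 (0.058) and Cx3cl1 (-0.039). When single libraries were left out they ran from -0.51 to 0.60 for Ccl20, -0.22 to 0.43 for Ccl28, -0.63 to 0.41 for Cxcl10, -0.086 to 0.14 for Cx3cl1, -0.44 to 0.60 for Cxcl1, -0.30 to 0.41 for Cxcl16, -0.23 to 0.97 for Ccl2, -0.17 to 0.58 for Ccl5, 0.41 to 1.77 for Cxcl2 and 0.28 to 2.18 for Cxcl5. The difference of the treatment effect between styles changed sign with library totals and in limma-voom for Cxcl5 (-0.035 and -0.46) and Ccl5 (-0.022 and -0.023). With single libraries left out it ran from -1.38 to 0.58 for Cxcl5, -0.38 to 0.43 for Ccl5, -0.17 to 0.43 for Cxcl10, -0.89 to 0.028 for Ccl2 and -0.063 to 0.50 for Cxcl1. The cause of these changes was not tested. With the replicate number as a block, 1 gene and 0 chemokines were called by treatment, and Cxcl2 was at 1.45 and Cxcl5 at 1.97. Same-numbered libraries deviated together only for replicate 1 (r = 0.661, against -0.0113 and 0.00706 for replicates 2 and 3), so the numbers were not taken to pair the mice. Low counts limit Ccl20 and Cxcl2 in the treatment-named libraries, and only 2 libraries are treatment-named.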
